A study of Bos taurus with 15 samples.

Results

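Genes of Wnt, TGF-beta, BMP and activin signalling were examined in the caruncular endometrium of the cow. The members were chosen from the text that the array gives each probe. A probe was taken when its gene name began with WNT, FZD, SFRP, DKK, SMAD or BMP, or when its description or accession field held a term such as wingless, frizzled, dickkopf, bone morphogenetic protein, activin, inhibin, follistatin or SMAD family. Of the 15208 probes other than controls, 45 probes of 43 genes matched, and 39 probes of 37 genes were kept because 3 or more of the 15 arrays marked them as well above background. FSTL5, BMP15, GDF10, INHBB, WFIKKN2 and BMPR1B were left out by that filter, each being well above background in at most 2 arrays. FST and BMPR1A each had 2 probes, and all other members had 1. The members were compared among 13164 probes that passed the same filter.

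The tissue came from Japanese Black cows, and RNA of the caruncles, the sites of the uterine lining where the placenta attaches, was hybridised to 1 one-color Agilent array per cow. The groups were non-pregnant cows on day 15 (NP15, 4 arrays) and day 18 (NP18, 4 arrays) of the estrous cycle, and pregnant cows on day 15 (P15, 3 arrays) and day 18 (P18, 4 arrays) of gestation, counting the day of artificial insemination as the first day. Tissue was taken from the uterine horn on the side of the corpus luteum, and a cow was taken as pregnant when fetal trophoblast was seen by eye. The methods name more animals for P15 than the 3 arrays analysed here.

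Wnt proteins bind Frizzled receptors and act through beta-catenin or through other routes, and secreted proteins of the SFRP and Dickkopf families hold them back. TGF-beta, BMPs and activins are related ligands that join type I and type II receptors, which pass the signal to SMAD proteins. Follistatin binds activins and some BMPs outside the cell. In the uterus these pathways are known for roles in gland formation, stromal differentiation and implantation.

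Levels are given as the signal of a probe divided by the median signal of its array, a unit called array medians below. Differences between groups are log2 fold changes with their standard error (SE) from limma, a linear model with moderated variances. A member was called when its p-value, adjusted over all 13164 probes by the method of Benjamini and Hochberg, was below 0.05 and its fold change was over 2. Probes have different binding strengths, so the level of one gene is not set against that of another. In bulk tissue, fewer cells of a type and less RNA per cell cannot be told apart.

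The arrays differed between groups in ways that touch weak members. The lowest signal well above background was 0.0304 to 0.0475 array medians in NP15, 0.0196 to 0.0519 in P15, 0.0660 to 0.0950 in NP18 and 0.102 to 0.180 in P18. No scan day was shared between groups, and NP15 alone was scanned on several days, so scan day and group cannot be told apart. Defining markers of epithelium (5 of 5 on the array) and stroma (7 of 7) passed the background mark in all 15 arrays. Of 9 trophoblast markers on the array, 5 of the 7 tested were called higher in P18 than in NP18. Their summed level was 0.327 to 0.444 array medians in NP18, and 0.611, 135.6, 80.5 and 590.8 in P18 replicates 1 to 4, so trophoblast transcripts were abundant in 3 of the 4 P18 arrays. In the same comparison 2 of 3 smooth muscle markers (ACTA2 and CNN1), 1 of 7 stromal (COL1A1) and 1 of 5 endothelial markers (PECAM1) were called lower, and all 5 interferon-response markers were called higher. On day 15 no marker of any of these lists was called.

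On day 18, DKK1 was higher and BMP7 was lower in pregnant than in non-pregnant cows. These were the 2 members called of 39, or 5.13%, whereas 5.75% of all probes tested were called in this comparison, so the members were not called more often than probes in general. The median log2 fold change of the members was 0.01, and that of all probes tested was 0.07. Of the members, 20 were above 0 and 19 below 0 in the estimate.

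DKK1 is a secreted antagonist that blocks Wnt signalling at the LRP co-receptors. Its probe is annotated as a transcribed locus moderately similar to dickkopf homolog 1. The sequence of this probe is shown because the largest log2 fold change of a member in any comparison rests on it alone, and the BMP4 probe is shown because it carries a call on a signal near background. Both are read from the scanner files, 5′ to 3′, and both are 60 bases long with no stop codon in the frame of the first base. Capitals mark the cysteine codons TGT and TGC in that frame, since Dickkopf proteins are rich in cysteine. The DKK1 probe holds 2 of them and the BMP4 probe holds 0. The BMP4 probe was picked for its weak signal, so these counts do not test the identity of either probe. These 2 sequences were chosen after the results were seen.
DKK1: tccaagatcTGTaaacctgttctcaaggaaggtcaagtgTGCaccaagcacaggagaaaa
BMP4: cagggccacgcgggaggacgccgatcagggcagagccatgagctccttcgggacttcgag

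The level of DKK1 was 6.20, 1.05, 0.812 and 0.124 array medians in NP18 replicates 1 to 4. In P18 it was 33.1, 47.4, 49.5 and 12.2. Every P18 array lay above every NP18 array, and all 15 arrays were well above background for this probe. The mean rose from 2.05 ± 2.80 to 35.6 ± 17.2 array medians (SD, n = 4 in each group). The log2 fold change was 5.12 (SE 1.06, 95% interval from 2.84 to 7.39, adjusted p = 0.0111 by limma). By an exact two-sided permutation test p was 0.0286, the smallest that 4 against 4 arrays can give.

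DKK1 also varied more within groups than any other member. Its within-group SD was 1.72 on the log2 scale, against a median of 0.582 for the members and 0.441 for all probes tested. On day 15 the levels were 11.4, 4.00, 21.3 and 1.14 array medians in NP15 and 12.7, 4.25 and 26.1 in P15. These groups overlapped, and the log2 fold change of 0.96 had a 95% interval from -1.50 to 3.42. The estimate for day 18 exceeded that for day 15 by 4.16 (SE 1.57), a difference that did not pass the test (adjusted p = 0.164 by limma). The NP18 mean lay 2.68 log2 units below the NP15 mean, which did not pass the test either (adjusted p = 0.111 by limma).

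The P18 array with few trophoblast transcripts, replicate 1, read 33.1 array medians for DKK1, between the levels of the other P18 arrays. With this array alone as P18 the log2 fold change was 5.20, and with a single array in the group the adjusted p by limma was 0.472. The call held with any 1 array left out, when the log2 fold change stayed between 4.16 and 6.04. DKK1 was not called by the methods' t-test after Benjamini-Hochberg adjustment, which called BMP7 alone on day 18. The same fold change was not called when limma took scan day as a random block (adjusted p = 0.504 by limma).

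BMP7, a BMP ligand, was well above background in all 4 NP18 arrays, in no P18 array, in no NP15 array and in 1 P15 array. Its level was 0.570, 0.141, 0.183 and 0.218 array medians in NP18 and 0.028, 0.021, 0.037 and 0.033 in P18. On day 15 it was 0.007, 0.013, 0.023 and 0.015 in NP15 and 0.016, 0.011 and 0.043 in P15. NP18 was therefore the only group in which this probe gave a signal in every array, and no other array reached its lowest value. The filter of 3 arrays therefore kept BMP7 only through NP18, the group in which it was high, so a difference between NP18 and the other groups was built into its selection, and its p-values in comparisons with NP18 do not count that choice. The day 18 log2 fold change was -3.04 (SE 0.49, adjusted p = 0.00201 by limma, exact permutation p = 0.0286), and with no filter on dim probes the adjusted p was 0.00237 by limma. That refit tested all probes, but BMP7 was still a member only through its NP18 arrays, so the refit does not undo that choice. Since P18 was at background, the levels support only a bound, at least 1.86-fold lower in P18, taking each dim array at the lowest signal that was well above its background. The bound was 1.39 without NP18 replicate 1, the array with the highest BMP7.

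BMP7 was the 1 member whose pregnancy effect was called as different between the days. This was 2.56% of the 39 members, near the 2.72% of all probes tested that were called for this difference. BMP7 was tested here only because of its NP18 arrays, as above. Outside NP18 the probe was at background in all arrays but 1 of P15. Several of those values were stand-ins given to signals at or below background, so the estimate and its interval have no exact size. The effect on day 18 minus that on day 15 was -3.60 (SE 0.72, 95% interval from -5.13 to -2.06, adjusted p = 0.0199 by limma, and 0.0226 with no filter). Without P15 replicate 1 it was -3.74 with an adjusted p of 0.0564 by limma. With normexp background correction, which compresses weak signals, it fell to -0.49 and the day 18 effect to -0.94. Neither was called with a random block for scan day, where the adjusted p by limma was 0.237 for day 18 and 0.618 for the difference. In P18 replicate 1, which had few trophoblast transcripts, BMP7 read 0.028 array medians. That reading was not well above background and gives no exact level. Smooth muscle markers summed to 35.4 to 166.0 array medians in NP18 and 9.36 to 34.4 in P18, and their part in the BMP7 result was not tested.

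**Figure D1:**
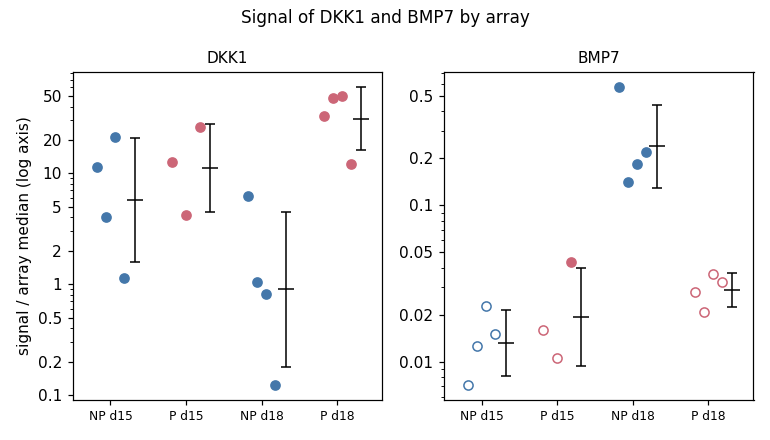
Signal of the DKK1 and BMP7 probes in each of the 15 arrays, as signal divided by the array median on a log axis, for non-pregnant (NP, blue) and pregnant (P, red) cows on days 15 and 18. Filled points were well above background and open points were not, and black bars give the mean and SD of the log2 values. All 4 P18 arrays sat above all 4 NP18 arrays for DKK1, and only NP18 had every array well above background for BMP7.

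The other members did not pass the test on day 18. Among the members grouped by symbol as Wnt antagonists, 6 of 7 had a log2 fold change above 0, and apart from DKK1 these ranged up to 0.95 for FRZB (adjusted p = 0.543 by limma). The exception, at -0.57, was DKKL1, annotated as dickkopf-like and placed in this group by its symbol only. The Wnt ligands WNT2B, WNT4, WNT5A and WNT16 ranged from -0.43 to 1.03. The Frizzled receptors ranged from -0.54 to 0.19. Both ranges include probes at background. On day 18 WNT4, FZD4, FZD6 and FZD8 were well above it in no array, FZD1 in no P18 array, and WNT16 in 2 NP18 and 1 P18 arrays. All 4 activin receptors had estimates above 0, of which the highest, ACVR1B, was 0.81 with an adjusted p of 0.162 by limma. All 3 BMP receptor probes had estimates below 0, of which the nearest to 0 was -0.03. That of BMPR2, the type II receptor, had a 95% interval from -1.75 to -0.25 (adjusted p = 0.102 by limma). These probes were near background in P18, where BMPR2 was well above it in 3 of 4 arrays. The BMPR1A probes ABR1564 and A_73_103772 were so in 2 and 1 of 4, and their ratio ranged from 0.71 to 6.54 over the 15 arrays.

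FST, which encodes the activin-binding protein follistatin, and INHBA, which encodes the activin A subunit, are described beyond the rule for named genes and were chosen after their values were seen. The FST probe ABR1323 read 93.5, 8.27, 14.8 and 9.82 array medians in NP18 replicates 1 to 4. In P18 it read 64.1, 96.2, 76.6 and 69.1. The second FST probe, ABR5659, read 32.8, 2.94, 5.02 and 2.92 in NP18 and 18.3, 24.7, 24.8 and 22.3 in P18. NP18 replicates 2 to 4 were thus low with both probes, while replicate 1 was within or above the P18 range, so the groups overlapped. The log2 fold changes were 2.04 (SE 0.60, adjusted p = 0.0535 by limma) and 1.87 (SE 0.60, adjusted p = 0.0792 by limma), and neither was called.

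Without NP18 replicate 1 they were 2.83 and 2.67, with adjusted p of 0.000438 and 0.000510 by limma. The members called on day 18 rose from 2 to 4, the added ones being the 2 FST probes. The share of all probes called in that refit is not given. This array alone made the groups overlap, and FST was chosen after its values were seen. Leaving out this array therefore favoured a call, and these p-values are not independent support. Probe ABR1323 was also called with normexp (adjusted p = 0.0349 by limma), array weights (0.00134) and without NP15 replicate 4 (0.0465). Keeping only probes well above background in all 15 arrays likewise gave a call (0.0407). Probe ABR5659 was otherwise called only with array weights (0.00235). The ratio of the first FST probe to the second was 2.81 to 3.90 over the 15 arrays, with a median of 3.09. On day 15 the first probe read 39.9 to 127.9 array medians in NP15 and 69.6 to 93.0 in P15. The NP18 replicate 1 array was also the highest of its group for members such as DKK1, BMP7, WNT5A, SFRP5 and INHA. For others, such as SMAD1, INHBA, TGFB1, BMPR2, ACVR1B, ACVR2A and ACVR2B, it was the lowest. It had the lowest summed epithelial markers of its group, 118.1 array medians against 254.0 to 352.2.

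The level of INHBA was 5.99, 9.74, 10.6 and 266.6 array medians in NP18 and 6.68, 5.30, 7.22 and 4.41 in P18. The single NP18 array at 266.6 stood far from the other 14, which lay between 4.14 and 17.7. The log2 fold change of -1.80 (SE 0.88) was not called (adjusted p = 0.229 by limma), and without that array it was -0.56. INHA, the inhibin alpha subunit, read 1.21, 0.314, 0.542 and 0.236 in NP18 and 0.508, 0.558, 0.708 and 0.437 in P18, which overlapped.

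**Figure D2:**
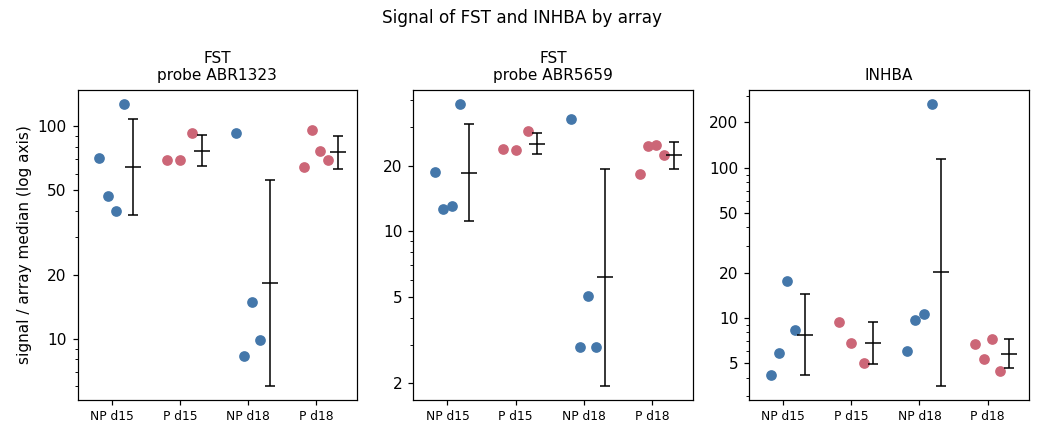
Signal of both FST probes and of INHBA in each array, as signal divided by the array median on a log axis, with the groups, points and bars as in the plot of DKK1 and BMP7. For FST, 3 of the 4 NP18 arrays lay below all others and replicate 1 did not, and for INHBA the NP18 array at 266.6 array medians lay above the other 14.

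On day 15 no member was called, and 0.798% of all probes tested were. The lowest adjusted p among the members was 0.208 by limma. An unadjusted limma p below 0.05 was found for 5 of the 39 members, no larger a share than the 14.9% of all probes. The median log2 fold change was 0.15 for the members and -0.06 for all probes. The arrays of the groups did not overlap for 6 members, or 15.4%, and for 15.6% of all probes. With 4 against 3 arrays the exact permutation test cannot go below 0.0571, which each of these 6 members reached.

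WNT5A, a Wnt ligand that acts mainly outside the beta-catenin route, was 12.1, 18.6, 20.3 and 31.0 array medians in NP15 and 31.8, 39.9 and 35.2 in P15. Its log2 fold change was 0.87 (SE 0.32, 95% interval from 0.19 to 1.55, adjusted p = 0.219 by limma). On day 18 the estimate was -0.43, with 43.4, 32.9, 29.7 and 19.8 array medians in NP18 and 18.6, 24.3, 29.3 and 19.3 in P18. The pregnancy effect of WNT5A thus had opposite signs on the days, and the difference of -1.30 (SE 0.43) did not pass the test (adjusted p = 0.115 by limma).

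The probe named TMEFF1, for a membrane protein with follistatin domains, carries a gene number that RefSeq assigns to MSANTD3, so its identity is uncertain. It read 1.61, 1.67, 2.29 and 0.886 array medians in NP15 and 2.93, 2.38 and 2.88 in P15 (log2 fold change 0.83, SE 0.33, adjusted p = 0.251 by limma). The groups were separate, but the gap between the nearest arrays was smaller than the range within NP15.

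The remaining members with separate groups were lower in the P15 arrays. FZD3, a Frizzled receptor, read 0.646, 0.468, 0.348 and 0.288 array medians in NP15 and 0.285, 0.257 and 0.240 in P15 (log2 fold change -0.68, SE 0.31, adjusted p = 0.312 by limma). SMAD1, which carries BMP signals to the nucleus, read 2.47, 2.24, 2.30 and 1.94 in NP15 and 1.26, 1.57 and 1.53 in P15 (log2 fold change -0.63, SE 0.22, adjusted p = 0.208 by limma). SFRP5, a secreted Wnt antagonist, read 0.491, 0.678, 0.755 and 0.532 in NP15 and 0.400, 0.388 and 0.483 in P15, where the gap between the groups was narrow (log2 fold change -0.52, SE 0.26, adjusted p = 0.356 by limma). The rule named 5 such members, and TGFB1, the ligand TGF-beta 1, was the sixth, named after its values were seen. It read 0.163, 0.199, 0.176 and 0.182 in NP15 and 0.141, 0.140 and 0.146 in P15 (log2 fold change -0.33, adjusted p = 0.516 by limma). WNT4 had the highest estimate on day 15, 1.16, but was well above background in only 1 of 4 NP15 and 2 of 3 P15 arrays. It was the 1 member called on day 15 when limma weighted the arrays, and the share of all probes called with that weighting is not given.

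**Figure D3:**
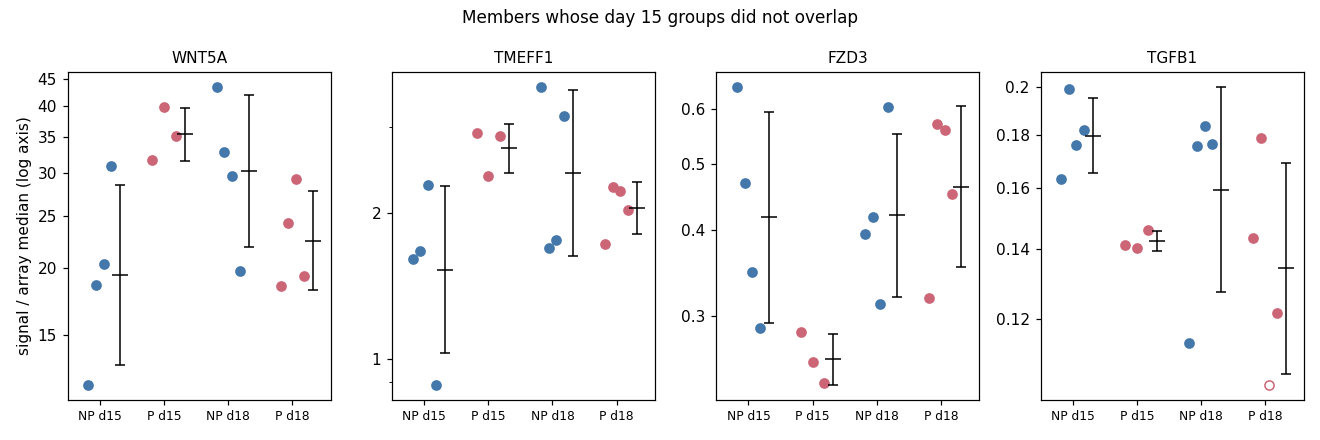
Signal of WNT5A, TMEFF1, FZD3 and TGFB1 in each array, as signal divided by the array median on a log axis, with the groups, points and bars as in the plot of DKK1 and BMP7. On day 15 the pregnant arrays lay above the non-pregnant arrays for WNT5A and TMEFF1 and below them for FZD3 and TGFB1, and on day 18 the groups overlapped for these 4 members.

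On day 18 the arrays of the groups did not overlap for 2 members, DKK1 and BMP7, or 5.13% of the 39, and for 16.3% of all probes tested.

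**Figure D4:**
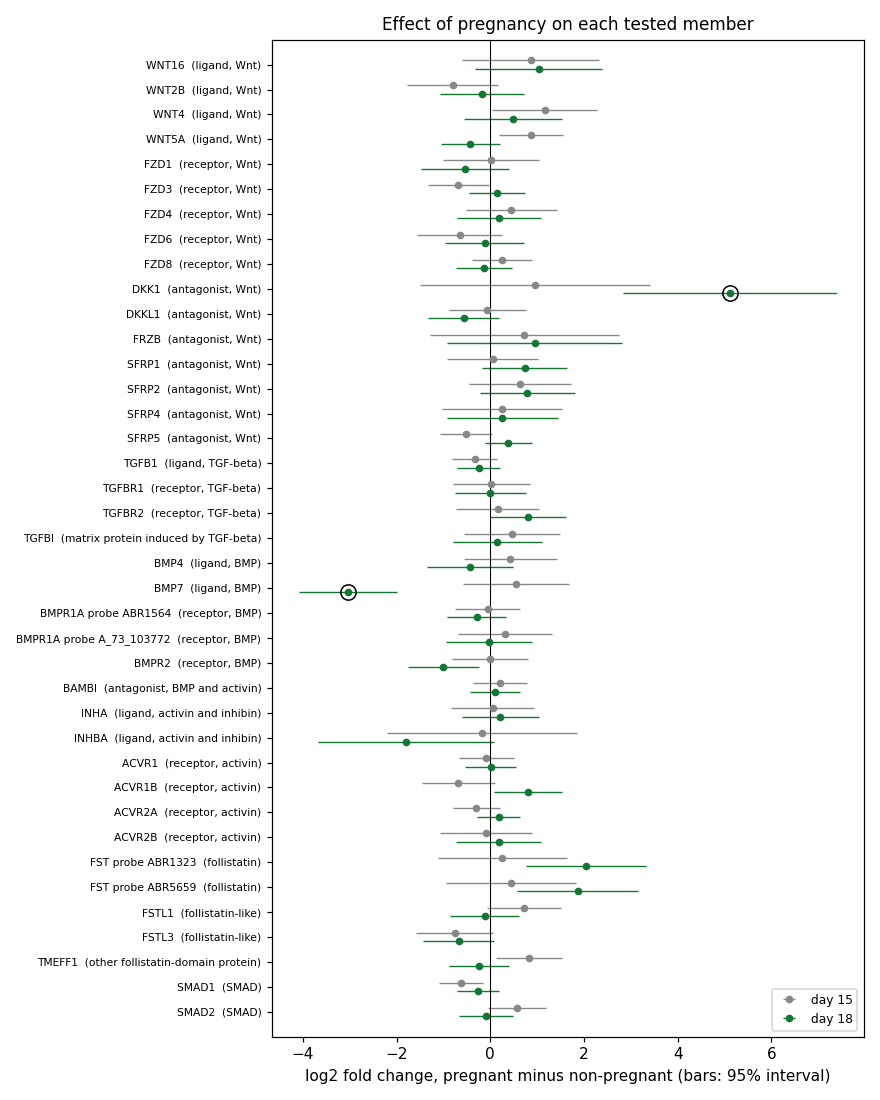
Log2 fold change of each of the 39 member probes between pregnant and non-pregnant cows on day 15 (gray) and day 18 (green), with 95% intervals from limma and members ordered by role. Circles mark the 2 called members, DKK1 at 5.12 and BMP7 at -3.04 on day 18, and no member was called on day 15.

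Between the days, BMP7 was higher and SFRP5 and SMAD1 were lower in NP18 than in NP15. These were 3 of the 39 members, or 7.69%, BMP7 having entered only through NP18, and 7.16% of all probes tested were called in this comparison. The members' median log2 fold change was -0.14 and that of all probes 0.02. Dividing by the 75th percentile of the array in place of the median moved the median of all probes to -0.10 in this comparison, and from 0.12 to -0.18 in the comparison of P18 with P15. The comparisons between days and those between pregnant and non-pregnant cows share arrays.

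SMAD1 read 0.682, 0.914, 0.899 and 1.36 array medians in NP18, all below the NP15 arrays given above. The log2 fold change was -1.26 (SE 0.21, adjusted p = 0.00289 by limma, exact permutation p = 0.0286). In the pregnant cows SMAD1 was 0.758, 0.758, 0.767 and 0.829 in P18, again below every P15 array, with a log2 fold change of -0.89 (SE 0.22, adjusted p = 0.0165 by limma) that was under 2-fold and so not called. This change passed the fold limit and was called with 75th percentile scaling (-1.19, adjusted p = 0.00364 by limma). The authors' log2 table, which is nearly the same scaling and so not a second check, gave the same call (-1.19, adjusted p = 0.00367 by limma). SMAD1 had the lowest mean in P18, 0.778 ± 0.0342 array medians (SD, n = 4), and the highest in NP15, 2.24 ± 0.219 (SD, n = 4). SMAD2, which carries TGF-beta and activin signals, had estimates above 0 in both comparisons, 0.85 and 0.18, and neither was called (adjusted p = 0.0568 and 0.703 by limma).

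SFRP5 read 0.334, 0.257, 0.261 and 0.258 array medians in NP18, below every NP15 array, and the log2 fold change was -1.13 (SE 0.24, adjusted p = 0.0101 by limma, exact permutation p = 0.0286). Its P18 arrays, at 0.533, 0.403, 0.271 and 0.286, overlapped P15 and NP18. BMP7 was at least 6.31-fold higher in NP18 than in NP15 (log2 fold change 4.17, SE 0.49, adjusted p = 0.000733 by limma, and 0.00102 with no filter), and the bound was lowest, 4.72, without NP18 replicate 1. With normexp background correction the log2 fold changes of BMP7 and SFRP5 were 0.96 and -0.92, under 2-fold, and neither was called. In a fit of NP15 and NP18 alone SFRP5 and SMAD1 were not called, with adjusted p of 0.0625 and 0.0591 by limma. With a random block for scan day, BMP7 was the 1 member still called (adjusted p = 0.0413 by limma), and SFRP5 and SMAD1 were not, with adjusted p of 0.192 and 0.0991. Without NP15 replicate 1 there were 5 members called, SMAD2 and TGFBI added. Without NP18 replicate 1 there were 7, with DKK1, both FST probes and INHA added. The share of all probes called in these refits is not given, so these counts are not set against probes in general.

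In pregnant cows, ACVR1B was higher and BMP4 was lower on day 18 than on day 15. These were 2 of 39 members, or 5.13%, whereas 11.9% of all probes were called in this comparison. ACVR1B, a type I receptor for activins, read 3.42, 3.27 and 3.05 array medians in P15 and 6.94, 7.95, 7.96 and 10.5 in P18 (log2 fold change 1.34, SE 0.37, adjusted p = 0.0249 by limma). The P15 arrays were close together and all P18 arrays were higher, while NP15, from 3.06 to 9.78, covered most of both ranges. The exact permutation p was 0.0571, the smallest that 3 against 4 arrays can give.

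BMP4, a BMP ligand, read 0.195, 0.319 and 0.167 array medians in P15 and 0.067, 0.080, 0.040 and 0.073 in P18. It was well above background in every P15 array and in no P18 array. The log2 fold change was -1.79 (SE 0.46, adjusted p = 0.0196 by limma), and the levels support a bound of at least 1.70-fold lower in P18. In the non-pregnant cows BMP4 was 0.178, 0.322, 0.108 and 0.111 in NP15 and 0.154, 0.095, 0.091 and 0.039 in NP18, which overlapped (adjusted p = 0.164 by limma).

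Both calls between P15 and P18 depended on single arrays and on the scaling or background correction. ACVR1B was not called with 75th percentile scaling (log2 fold change 1.05, adjusted p = 0.0784 by limma) or quantile normalization (1.15, adjusted p = 0.0581 by limma). The authors' log2 table, nearly the same as the 75th percentile scaling, gave the same result (1.05, adjusted p = 0.0782 by limma). With normexp the log2 fold change of BMP4 was -0.51 and it was not called (adjusted p = 0.128 by limma). ACVR1B was not called when any 1 of the 3 P15 arrays or any 1 of P18 replicates 2, 3 and 4 was left out, although its log2 fold change stayed between 1.23 and 1.43 and its adjusted p reached at most 0.0844 by limma. BMP4 was not called without P15 replicate 1, P15 replicate 2 or P18 replicate 3, with log2 fold changes of -1.87, -1.51 and -1.57 and adjusted p from 0.0582 to 0.0873 by limma. Neither was called with a random block for scan day. With P18 replicate 1, the array with few trophoblast transcripts, as the only P18 array, the log2 fold changes were 1.10 for ACVR1B and -1.69 for BMP4 and neither was called. Without P18 replicate 1 there were 4 members called, FZD1 and FZD3 added, and the share of all probes called in that refit is not given.

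**Figure D5:**
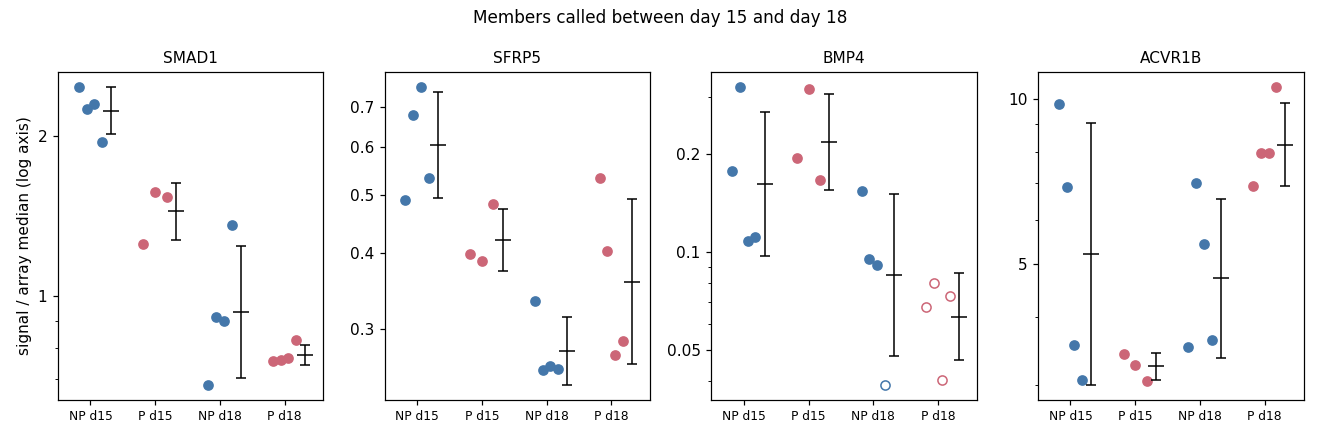
Signal of SMAD1, SFRP5, BMP4 and ACVR1B in each array, as signal divided by the array median on a log axis, with the groups, points and bars as in the plot of DKK1 and BMP7. SMAD1 and SFRP5 were lower in all NP18 than in all NP15 arrays, BMP4 was not well above background in any P18 array, and ACVR1B was higher in all P18 than in all P15 arrays.

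The Frizzled receptors other than FZD3 lay near background, except FZD1 on day 15. FZD1 was well above background in all 4 NP15 and all 3 P15 arrays, at 0.092 to 0.212 array medians. FZD6 was well above background in all 4 NP15 and 2 of 3 P15 arrays and in no array of day 18. FZD8 was well above background in 3 of 4 NP15 and all 3 P15 arrays and likewise in no array of day 18. The FZD6 level on day 15 was 0.026 to 0.116 array medians, around the lowest signal that could be told from background on day 18, so no fall can be read from these counts. FZD1 was at least 1.27-fold lower in P18 than in P15 (log2 fold change -1.42, SE 0.48, adjusted p = 0.0553 by limma), which was not called.

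Other genes of the pathways were taken from a list of 113 genes that are not members, of which 53 were on the array and 49 passed the filter. On day 18, 0 were called higher and 4 lower in pregnant cows, namely MSTN, MSX1, PMEPA1 and CSNK1E. These were 8.16% of the list, against 5.75% of all probes, and the list's median log2 fold change was -0.20. MSTN, the ligand myostatin, was 2.61 ± 1.47 array medians in NP18 and 0.398 ± 0.146 in P18 (SD, n = 4 in each group; log2 fold change -2.58, adjusted p = 0.00153 by limma). It was also the 1 gene of the list, or 2.04%, whose effect differed between the days (-2.49, SE 0.58, adjusted p = 0.0366 by limma), against 2.72% of all probes. CSNK1E, a casein kinase, was well above background in all 4 NP18 and all 3 P15 arrays and in no P18 array, so it was at least 1.33-fold lower in P18 than in NP18. On day 15, 0 were called higher and 1 lower, MSX2, a homeobox gene that responds to BMPs (log2 fold change -2.04, adjusted p = 0.0281 by limma), which was 2.04% of the list, against 0.798% of all probes.

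From NP15 to NP18, 5 genes of the list rose and 4 fell, together 18.4% of the list, against 7.16% of all probes. No test of that share was made. Those that rose were ID1, ID3 and ID4, target genes of BMP signalling, MSTN and SOSTDC1, a BMP and Wnt antagonist that was well above background in only 1 NP18 and no NP15 array. Those that fell were CHRD, which encodes the BMP antagonist chordin, GDF7, AMH and MSX2. ID1 rose from 34.0 ± 12.7 to 87.7 ± 20.2 array medians and ID3 from 3.92 ± 0.790 to 9.84 ± 1.46 (SD, n = 4 in each group; log2 fold changes 1.41 and 1.34, adjusted p = 0.0104 and 0.00878 by limma). CHRD fell from 37.1 ± 13.1 to 14.9 ± 5.87 (SD, n = 4 in each group; log2 fold change -1.32, adjusted p = 0.0106 by limma).

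From P15 to P18, 2 genes of the list rose, ID1 and ID2, and 3 fell, CHRD, AXIN1 and CSNK1E, together 10.2% of the list, against 11.9% of all probes. CSNK1E was at least 1.54-fold lower in P18. ID1 was 50.4 ± 3.28 array medians in P15 (SD, n = 3) and 117.5 ± 38.1 in P18 (SD, n = 4), a log2 fold change of 1.17 (adjusted p = 0.0251 by limma). CHRD was 36.2 ± 4.32 in P15 (SD, n = 3) and 11.3 ± 1.41 in P18 (SD, n = 4), a log2 fold change of -1.68 (adjusted p = 0.00387 by limma). ID1 and CHRD were the 2 genes of the list called between the days in both the non-pregnant and the pregnant cows. With a random block for scan day, GDF7 from NP15 to NP18 was the 1 call of the list that remained (adjusted p = 0.0468 by limma), and the others were lost in all of these comparisons.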

How the data were processed

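Cy3-labeled RNA of 15 cows was hybridised to custom one-color arrays. The authors extracted the data with Agilent Feature Extraction 9.5 (submitters' processing notes), and the deposited processed intensity of each spot is background-subtracted and detrended within its array, with a surrogate value at or below background and no scaling between arrays. The authors also deposited log2 values of the same arrays. The methods state division by the median of each array, but the column medians of this table were -3.19 to -2.72, and each column differed from the log2 intensities by a constant within 0.013 of the log2 75th percentile of its array. The table served as an alternative, but it nearly repeats the 75th percentile scaling and is not independent of it.

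Intensities were divided by the array median over 15208 probes, and log2 was taken. Outlier spots and controls were left out, and saturated spots were kept. Surrogate values give weak genes no exact level. Names came from the array text and a RefSeq table of genes (ARS-UCD2.0), used for names only, in which 6986 probes found a name, 6671 of them distinct. BMP7, DKK1, SFRP4, BAMBI and TGFBI were named by the array description only. Limma 3.58.1 in R 4.3.3 fitted 1 mean per group over all arrays and was tested on simulated data. Exact permutation tests used scipy 1.17.1, tables pandas 2.3.3 and numpy 2.4.6, and figures matplotlib 3.10.9, in Python 3.11.15. The number of arrays limits the precision.

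Named genes were every called member and, for each day, up to 5 uncalled members with the largest fold change whose groups did not overlap. Additions to this rule are stated where they occur. The members and lists were chosen with earlier results of these data known. Where a pathway or marker gene had several probes, the brightest that passed the filter was taken. The alternatives were 4 other scalings or value tables, 2 other filters, array weights, a fit of the compared groups alone, slide, scan day and replicate number as blocks, the methods' t-test, no fold limit, and leaving out each array. The fit with P18 replicate 1 as the only P18 array was added after seeing the data. Some results, and their part in the counts of other pathway genes, are not reported here.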

Additional observations from a re-analysis of the deposited data

Results flagged for a closer look

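Among the 11 genes described in full, 36 sets of 4 arrays were tested for an array far from the others of its group, and 3 were found. Chance flags about 1 in 20 such sets, but INHBA and FST were added after their values were seen, so the 3 are not a fair count against that rate. INHBA read 266.6 array medians in NP18 replicate 4, SFRP5 read 0.334 in NP18 replicate 1, and SMAD1 read 0.829 in P18 replicate 4. The effect of pregnancy on BMP7 was called as different between day 18 and day 15 (adjusted p = 0.0199 by limma). BMP7 passed the filter only through NP18, the group in which it was high, and this p-value does not count that choice. The call was lost with normexp, with a random block for scan day and without P15 replicate 1.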

How the results depend on the processing

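The replicate numbers of the labels did not pair the arrays, since same-numbered arrays deviated together by a correlation of only -0.26 to 0.30. With the replicate number as a block, 0 members were called on day 15, 2 on day 18, 2 for the difference between the days, 4 in the non-pregnant cows and 2 in the pregnant cows. With array weights the counts were 1, 5, 7, 8 and 4, and with a random block for scan day 0, 0, 0, 1 and 0. With 1 array left out they ranged from 0 to 0, 2 to 4, 0 to 3, 3 to 7 and 0 to 4. The share of all probes called is given for the main fit only. The counts in this paragraph therefore do not show whether the members gained or lost calls more than probes in general. The 2 probes of FST count as 2 members. With P18 replicate 1 as the only P18 array, chosen after seeing the data, 0 members were called on day 18, 0 for the difference and 0 in the pregnant cows. The methods' t-test with adjustment called 0 members on day 15 and 1 on day 18, BMP7. Without adjustment it called 4 in the pregnant cows. Requiring signal above background in all 15 arrays left 23 members without BMP4 and BMP7 and gave 0 for the difference, 1 in the pregnant cows and 5 in the non-pregnant cows, where FST probe ABR1323, INHA and TGFBI were added to SFRP5 and SMAD1. A fit of the compared groups alone gave 1 in the non-pregnant and 4 in the pregnant cows, quantile normalization gave 5 and normexp 1 in the pregnant cows.

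Directions turned only for differences that were not called, 26 of the 1574 single values recomputed, and 32 calls were lost and 30 gained. With array weights the log2 fold change became -0.20 for BMP4 (day 15), 0.051 for FST probe ABR1323 (pregnant, between days), -0.23 for FZD3 (non-pregnant, between days), 0.14 for INHBA (day 15) and 0.080 for TMEFF1 (day 18). With normexp it became 0.17 and 0.13 for BMP4 (day 18 and the difference), -0.44 for BMP7 (day 15) and -0.057 for FZD3 (non-pregnant). The 75th percentile gave -0.11 for FZD3 (non-pregnant), as did the authors' table, -0.11, and quantile normalization -0.25 for BMP7 (pregnant). The replicate block gave 0.21 for INHBA (day 15), and P18 replicate 1 alone -0.40 for FZD3 (day 18) and 0.34 for SFRP5 (pregnant). With 1 array left out the ranges that crossed 0 were -0.40 to 0.16 for ACVR1B (non-pregnant), -0.028 to 0.99 for BMP7 (day 15), -0.14 to 0.12 for FST probe ABR1323 (pregnant), -0.0041 to 0.32 and -0.17 to 0.22 for FZD3 (day 18 and non-pregnant), and -0.48 to 0.22 for INHBA (day 15). The causes were not tested.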
